A study of Aconitum japonicum with 4 samples.

Results

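The transcripts described here encode the first enzymes of the mevalonate (MVA) pathway in *Aconitum japonicum*, a plant that makes diterpene alkaloids. They comprise 3 transcripts assigned to acetoacetyl-CoA thiolase (AACT), TR49281|c2_g1_i2, TR49281|c2_g1_i3 and TR49281|c2_g1_i10, and the transcript assigned to hydroxymethylglutaryl-CoA synthase (HMGS), TR44745|c0_g1_i1. These 4 of the 129760 assembled transcripts were chosen by their names in the pathway table of the study, and not by their expression. A further transcript listed under HMGS, TR50259|c0_g1_i1, was described there as a hydroxymethylglutaryl lyase and was left out. The enzyme names are the assignments of the study and were not checked against sequence here. The 3 AACT transcripts belong to 1 gene of the Trinity assembly, so they are not independent of each other.

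AACT joins a pair of acetyl-CoA units into acetoacetyl-CoA, and HMGS adds another to give hydroxymethylglutaryl-CoA. The next enzyme, hydroxymethylglutaryl-CoA reductase (HMGR), converts that product to mevalonate and is widely regarded as a control point of the pathway. Mevalonate is then phosphorylated and decarboxylated to isopentenyl diphosphate, the building block of sterols and, together with the precursor from the plastid methylerythritol phosphate (MEP) pathway, of other terpenoids.

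RNA-seq libraries were made from daughter root, rootlet, mother root and leaf of *A. japonicum* plants, with 1 library per organ. Mother root is the older storage root, daughter root a younger root it gives off, and rootlet the fine fibrous root. No treatment distinguished the libraries, and no strain or plant age is given in the sources used here. Without replicates, no test between organs was possible, and every difference below is a difference between single libraries. In whole organs, a smaller number of cells of a type and less RNA per cell cannot be told apart.

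The libraries held between 4492151 fragments in rootlet and 12792781 in daughter root, with 11801534 in mother root and 4516426 in leaf. Expression is given as FPKM, the number of fragments of a transcript divided by its effective length and by the total of the library. The limits in parentheses are exact Poisson limits at 95%, which cover counting error only and not variation between plants. Fragments amplified by PCR are not independent molecules, so these limits may be too narrow even for counting error. The leaf label was checked with 10 photosynthesis transcripts, whose summed FPKM was 0.88 in daughter root, 1.13 in rootlet, 1.29 in mother root and 377.91 in leaf. Of these 10, 2 were above 0 in each root library, against all 10 in leaf, and 9 were highest in leaf. Most of the 10 had been listed as leaf-only from these same libraries, so they check the label and nothing else.

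TR49281|c2_g1_i2, the longest AACT transcript with 1717 bases, was expressed at 27.4 FPKM in daughter root (25.1 to 29.8), 21.1 FPKM in rootlet (17.9 to 24.8), 21.7 FPKM in mother root (19.6 to 23.9) and 27.0 FPKM in leaf (23.3 to 31.1). By these values daughter root and leaf were the high pair, and rootlet and mother root the low pair. The limits of leaf overlapped with those of rootlet and of mother root. These values came from 550, 149, 401 and 191 fragments in the same order of libraries. The level was the most even of the 4 transcripts, with the highest library 1.3 times the lowest. On the FPKM + 1 scale this ratio was 1.28, and 2.94% of the 27221 transcripts with a mean FPKM of at least 5 were more even. The median over those 27221 was 3.04. Among the 4781 transcripts with at least 100 fragments in every library, 6.11% were more even and the median was 2.10.

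TR49281|c2_g1_i3, with 1285 bases, was expressed at 19.1 FPKM in daughter root (16.9 to 21.5), 9.60 FPKM in rootlet (7.10 to 12.7), 11.6 FPKM in mother root (9.87 to 13.6) and 17.5 FPKM in leaf (14.1 to 21.6). It showed the same high pair of daughter root and leaf, and the highest library was 1.99 times the lowest. On the FPKM + 1 scale this ratio was 1.90, and 24.9% of the 27221 transcripts were more even. The values rested on 278 fragments in daughter root, 49 in rootlet, 156 in mother root and 90 in leaf.

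TR49281|c2_g1_i10, the shortest with 756 bases, was the least even. It was expressed at 10.1 FPKM in daughter root (8.03 to 12.6), 4.76 FPKM in rootlet (2.54 to 8.14), 1.11 FPKM in mother root (0.481 to 2.20) and 6.20 FPKM in leaf (3.61 to 9.92). Mother root stood below the other 3 libraries, and its limits did not overlap with theirs. The counts behind these values were small, with 79 fragments in daughter root, 13 in rootlet, 8 in mother root and 17 in leaf. The highest library was 9.14 times the lowest. On the FPKM + 1 scale this ratio was 5.28, and 67.2% of the 27221 transcripts were more even.

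HMGS was represented by TR44745|c0_g1_i1, with 1733 bases. It was expressed at 28.5 FPKM in daughter root (26.2 to 30.9; 578 fragments), 15.6 FPKM in rootlet (12.8 to 18.8; 111 fragments), 9.46 FPKM in mother root (8.12 to 11.0; 177 fragments) and 17.9 FPKM in leaf (14.9 to 21.3; 128 fragments). Daughter root stood above and mother root below the other libraries without overlap of the limits, whereas rootlet and leaf overlapped. The highest library was 3.01 times the lowest. On the FPKM + 1 scale this ratio was 2.82, and 46.8% of the 27221 transcripts were more even. Among the 4781 transcripts with at least 100 fragments in every library, 69.4% were more even. The lyase-described TR50259|c0_g1_i1 had another order, with 8.88 FPKM in daughter root, 44.6 FPKM in rootlet, 25.6 FPKM in mother root and 35.5 FPKM in leaf.

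**Figure D1:**
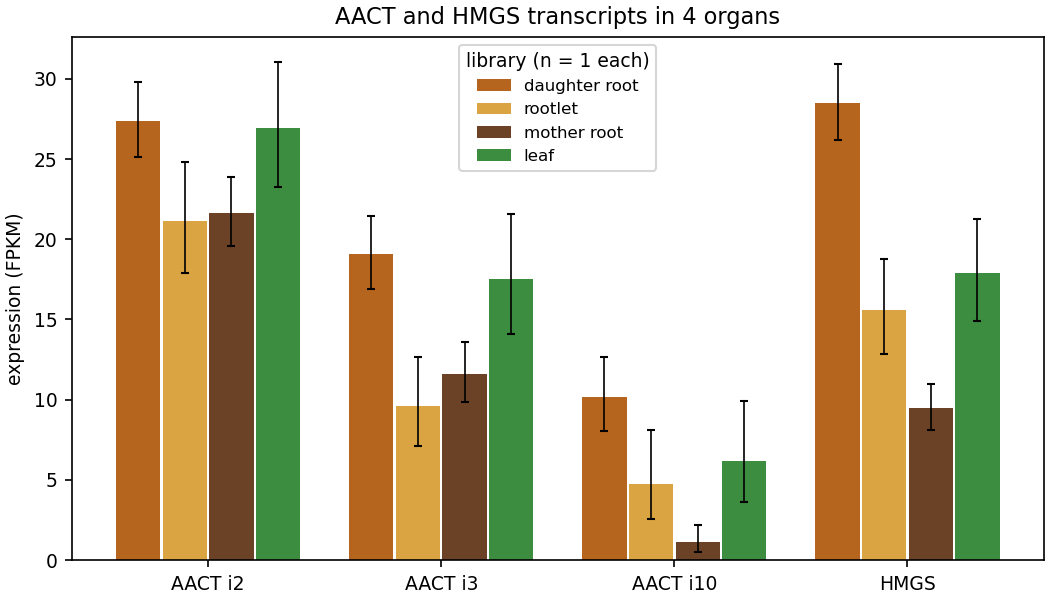
Expression in FPKM of the 3 AACT transcripts (i2, i3 and i10 of TR49281|c2_g1) and of HMGS in daughter root, rootlet, mother root and leaf. Bars are single libraries and error bars are 95% Poisson limits; the bar of daughter root is the highest for each transcript, that of leaf is next, and i10 in mother root is the lowest at 1.11 FPKM.

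All 4 transcripts were highest in daughter root and second highest in leaf. Daughter root was the highest library for 20.8% of the 27221 transcripts with a mean FPKM of at least 5. For i10 and HMGS the order was daughter root, leaf, rootlet, mother root, and for i2 and i3 mother root stood above rootlet. Among neighbours in these orders, the counting interval of the ratio included 1 for daughter root over leaf in i2, i3 and i10, for rootlet over mother root in i2 and i3, and for rootlet over leaf in i10 and HMGS. Such an interval leaves the order of those neighbours unresolved at this depth. With deposited TPM the daughter root over leaf ratio of i10 was 1.86 (1.09 to 3.35), which excluded 1.

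The storage roots were compared first. Limits on ratios between libraries are conditional binomial limits at 95% for single transcripts and delta-method limits where transcripts are summed. In daughter root over mother root, the ratio was 1.26 for i2 (1.11 to 1.44), 1.64 for i3 (1.35 to 2.01), 9.10 for i10 (4.40 to 21.8) and 3.01 for HMGS (2.54 to 3.58). The interval lay above 1 for 4 of 4 transcripts, against 21.0% of the 27221 transcripts. On the FPKM + 1 scale, 2 of 4 were more than 2-fold higher in daughter root, i10 at 5.28-fold and HMGS at 2.82-fold, against 9.19% of all. With so few transcripts from 2 Trinity genes, these shares describe the members and were not tested.

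In daughter root over rootlet, the ratio was 1.3 for i2 (1.08 to 1.56), 1.99 for i3 (1.46 to 2.75), 2.13 for i10 (1.18 to 4.17) and 1.83 for HMGS (1.49 to 2.26). The interval lay above 1 for 4 of 4, against 25.2% of all, and 0 of 4 were more than 2-fold higher on the FPKM + 1 scale, against 15.7%. In rootlet over mother root the members divided. The ratio was 0.976 for i2 (0.804 to 1.18) and 0.825 for i3 (0.586 to 1.14), but 4.27 for i10 (1.64 to 11.9) and 1.65 for HMGS (1.29 to 2.10). The interval lay above 1 for 2 of 4, against 22.4% of all, and i10 alone was more than 2-fold higher, which is 1 of 4 against 14.7%.

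Daughter root was then compared with leaf. The ratio of daughter root over leaf was 1.59 for HMGS (1.31 to 1.94), 1.02 for i2 (0.860 to 1.20), 1.09 for i3 (0.856 to 1.40) and 1.64 for i10 (0.961 to 2.95). The interval lay above 1 for 1 of 4, against 32.6% of all, and 0 of 4 were more than 2-fold higher, against 24.4%. The ratio of HMGS was 1.57 times that of i2 (1.21 to 2.04) and 1.46 times that of i3 (1.06 to 2.0), but 0.972 of that of i10 with an interval that included 1 (0.521 to 1.73).

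In rootlet over leaf, the ratio was 0.784 for i2 (0.629 to 0.977), 0.547 for i3 (0.378 to 0.784), 0.769 for i10 (0.343 to 1.68) and 0.872 for HMGS (0.670 to 1.13). The interval lay below 1 for 2 of 4, against 26.6% of all, and 0 of 4 were more than 2-fold lower, against 22.3%. In mother root over leaf, the ratio was 0.803 for i2 (0.674 to 0.959), 0.663 for i3 (0.508 to 0.869), 0.18 for i10 (0.0672 to 0.440) and 0.529 for HMGS (0.419 to 0.669). All 4 intervals lay below 1, against 27.3% of all, and 1 of 4, i10, was more than 2-fold lower, against 19.9%.

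**Figure D2:**
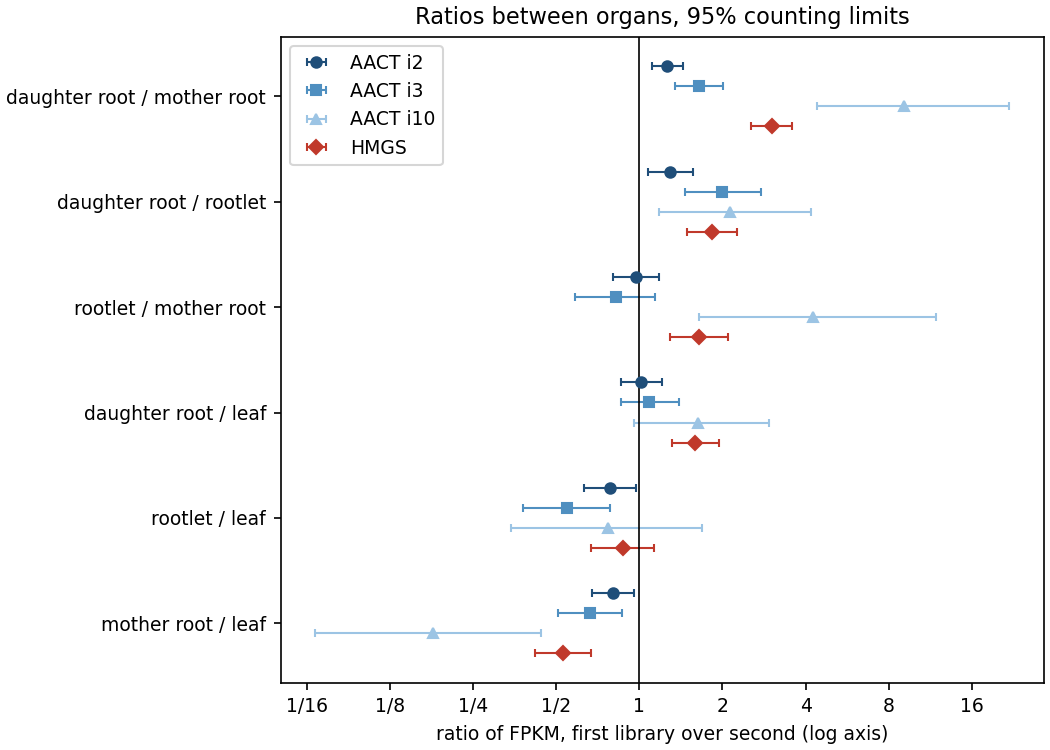
Ratio of FPKM between each pair of libraries, first over second, on a log axis, for AACT i2, i3 and i10 and for HMGS. Points are ratios of single libraries and bars are 95% counting limits; all 4 points of daughter root over mother root lie to the right of 1 and all 4 of mother root over leaf to the left.

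Some calls against leaf depended on the scaling. TPM raised the log2 ratio to leaf by 0.18 for daughter root, 0.17 for rootlet and 0.21 for mother root. With TPM the interval then included 1 for i2 in rootlet over leaf, at 0.885 (0.710 to 1.10), for i2 in mother root over leaf, at 0.930 (0.781 to 1.11), and for i3 in mother root over leaf, at 0.767 (0.588 to 1.01). The ratios of i10 and HMGS in mother root over leaf kept their intervals below 1.

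The 3 AACT transcripts were also summed, since they share 1 Trinity gene, with limits from the delta method. The sum was 56.6 FPKM in daughter root (52.8 to 60.7), 35.5 FPKM in rootlet (30.8 to 40.9), 34.4 FPKM in mother root (31.6 to 37.4) and 50.7 FPKM in leaf (45.0 to 57.1). Daughter root and leaf were again high, and rootlet and mother root low. The sum was 1.65 times higher in daughter root than in mother root (1.48 to 1.84) and 1.59 times higher than in rootlet (1.36 to 1.87). It was 0.679 of the leaf level in mother root (0.586 to 0.785) and 0.700 in rootlet (0.582 to 0.843).

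Between daughter root and leaf the AACT sum had a ratio of 1.12, with an interval that included 1 (0.973 to 1.28). With TPM this ratio was 1.27 (1.11 to 1.46) and with median-of-ratios scaling 1.16 (1.01 to 1.33), both of which excluded 1. Between rootlet and mother root it was 1.03 (0.875 to 1.22).

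The Trinity gene of AACT held a further pair of transcripts. TR49281|c2_g1_i11, with 501 bases, had 16, 2, 2 and 5 fragments in daughter root, rootlet, mother root and leaf, or 3.53, 1.26, 0.480 and 3.14 FPKM. TR49281|c2_g1_i4, with 309 bases, had 8, 3, 11 and 3 fragments, or 3.86, 4.15, 5.79 and 4.14 FPKM. Of this pair, i4 was highest in mother root and i11 lowest there, each on few fragments. With both added, the AACT level was 64.0 FPKM in daughter root, 40.9 FPKM in rootlet, 40.7 FPKM in mother root and 58.0 FPKM in leaf. No other transcript of the component TR44745 was listed beside HMGS.

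All 3 AACT transcripts were highest in daughter root and next in leaf, but the shares of i2 and i10 differed between some libraries. Of the fragments of all 3, i2 held 60.6% in daughter root (57.4 to 63.8), 70.6% in rootlet (64.0 to 76.7), 71.0% in mother root (67.0 to 74.7) and 64.1% in leaf (58.4 to 69.5), with exact Clopper-Pearson limits. The share of i3 was 30.7% in daughter root (27.7 to 33.8), 23.2% in rootlet (17.7 to 29.5), 27.6% in mother root (24.0 to 31.5) and 30.2% in leaf (25.0 to 35.8). These limits of i3 overlapped between all libraries, which does not show that its share was the same. The share of i10 was 8.71% in daughter root (6.96 to 10.7), 6.16% in rootlet (3.32 to 10.3), 1.42% in mother root (0.613 to 2.77) and 5.70% in leaf (3.36 to 8.98). The share of i10 in mother root thus lay below those in the other 3 libraries, with no overlap of the limits.

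Ratios between transcripts of the same libraries do not depend on how a library is scaled. In daughter root over mother root, the ratio of i10 was 7.19 times that of i2 (3.42 to 17.4) and 5.53 times that of i3 (2.58 to 13.6). The ratio of i3 was 1.3 times that of i2 (1.02 to 1.66). In daughter root over rootlet, the ratio of i3 was 1.54 times that of i2 (1.07 to 2.24). For i3 against i2 in the remaining pairs of libraries, the interval included 1. In mother root over leaf, the ratio of i10 was 0.225 of that of i2 (0.0824 to 0.561), whereas in rootlet over leaf it was 0.980 (0.423 to 2.22). How fragments that match more than 1 AACT transcript were assigned is not given in the sources used here, and all deposited counts were whole numbers. The part of that assignment in the shares of i2, i3 and i10 was not tested.

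**Figure D3:**
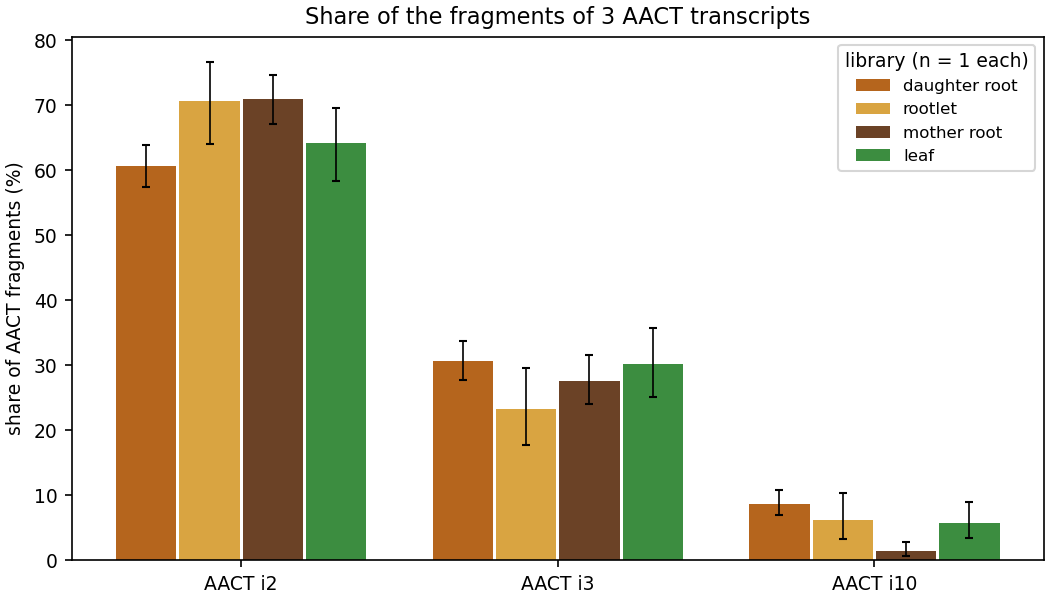
Percent of the fragments of the 3 AACT transcripts held by i2, i3 and i10 in daughter root, rootlet, mother root and leaf. Bars are single libraries and error bars are 95% Clopper-Pearson limits; i10 held 1.42% in mother root, against 5.70% to 8.71% in the other libraries.

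HMGS was then set against AACT within each library. The ratio of HMGS to the AACT sum was 0.503 in daughter root (0.452 to 0.560), 0.439 in rootlet (0.348 to 0.555), 0.275 in mother root (0.232 to 0.326) and 0.353 in leaf (0.286 to 0.435). The AACT sum was above HMGS in every library, but no single AACT transcript was above HMGS in daughter root. With i2 as the only AACT transcript, the ratio was 1.04 in daughter root, 0.737 in rootlet, 0.437 in mother root and 0.663 in leaf. The ratio was 1.83 times higher in daughter root than in mother root (1.5 to 2.24), 1.60 times higher in rootlet than in mother root (1.20 to 2.13) and 1.43 times higher in daughter root than in leaf (1.13 to 1.81). In daughter root over rootlet it was 1.15 (0.886 to 1.48), in rootlet over leaf 1.24 (0.909 to 1.70) and in mother root over leaf 0.780 (0.595 to 1.02), and these 3 intervals included 1.

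Against single AACT transcripts in daughter root over mother root, the ratio of HMGS was 2.38 times that of i2 (1.92 to 2.96) and 1.83 times that of i3 (1.40 to 2.39). It was 0.331 of that of i10 (0.135 to 0.703). HMGS thus lay between i3 and i10 in this comparison.

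The next step was set against AACT and HMGS in the same way. The 3 HMGR transcripts summed to 143 FPKM in daughter root, 113 FPKM in rootlet, 110 FPKM in mother root and 16.7 FPKM in leaf. The AACT sum was 0.395 of the HMGR sum in daughter root (0.365 to 0.429), 0.314 in rootlet (0.269 to 0.368), 0.313 in mother root (0.285 to 0.344) and 3.04 times it in leaf (2.35 to 3.94). AACT was therefore below HMGR in each root library and above it in leaf. The AACT to HMGR ratio in daughter root was 0.130 of that in leaf (0.0992 to 0.171). HMGS was 0.199 of HMGR in daughter root, 0.138 in rootlet and 0.0862 in mother root, against 1.07 in leaf (0.805 to 1.43).

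Mevalonate kinase (MVK) and phosphomevalonate kinase (PMK) add the phosphates to mevalonate. The 3 MVK transcripts summed to 19.3 FPKM in daughter root, 14.5 FPKM in rootlet, 13.6 FPKM in mother root and 11.1 FPKM in leaf. PMK had 19.4 FPKM in daughter root, 8.66 FPKM in rootlet, 10.6 FPKM in mother root and 8.62 FPKM in leaf. Both were highest in daughter root. Mevalonate diphosphate decarboxylase (MVDD), which yields isopentenyl diphosphate, had 33.0 FPKM in daughter root, 22.3 FPKM in rootlet, 26.6 FPKM in mother root and 5.05 FPKM in leaf. Like the HMGR sum, MVDD was lowest in leaf by a wide margin. Of the HMGR transcripts, TR50314|c2_g1_i1 and TR50314|c2_g1_i5 were lowest in leaf, at 7.17 and 3.79 FPKM. TR50314|c1_g1_i1 was lowest in mother root instead, with 33.3 FPKM in daughter root, 5.33 in rootlet, 4.06 in mother root and 5.71 in leaf.

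Of the summed FPKM of the 12 MVA transcripts, AACT and HMGS together made up 28.4% in daughter root, 24.4% in rootlet, 21.5% in mother root and 62.3% in leaf. AACT alone made up 18.9% in daughter root and 46.1% in leaf, and HMGS alone 9.50% and 16.3% in the same order. The total behind these shares was 300.01 FPKM in daughter root, 209 FPKM in rootlet, 204 FPKM in mother root and 110 FPKM in leaf. Leaf thus had the lowest total and the highest share of the first steps.

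The median log2 ratio of FPKM + 1 in daughter root over leaf was 0.37 for the AACT and HMGS transcripts, 1.72 for the other 8 MVA transcripts and 0.04 for all 27221. Only 6 of these 8 had the mean FPKM of at least 5 that the 27221 share, so the sets were not filtered alike. The MVK transcripts TR50024|c0_g1_i3 and TR50024|c0_g1_i4 fell below it. In daughter root over mother root these medians were 1.08, 0.42 and -0.18. In mother root over leaf they were -0.70, 0.44 and 0.20. The median of the members thus lay above that of the later steps between the storage roots and below it against leaf. The single transcripts of these lists overlapped in both comparisons. For example, i2 at 1.26 lay below PMK at 1.83 in daughter root over mother root, and in daughter root over leaf, HMGS at 1.59 lay above the MVK transcript TR50024|c0_g1_i4 at 1.44 (0.897 to 2.42). Among the other 8 MVA transcripts, 5 were more than 2-fold higher in daughter root than in leaf, against 24.4% of all 27221. In daughter root over mother root 1 of 8 was so, against 9.19%, and in mother root over leaf 3 of 8, against 26.1%. In these 3 comparisons 0 of 8 were past 2-fold in the other direction, against 6391, 3905 and 5418 of the 27221 in the same order. The 5 of daughter root over leaf were the 3 HMGR transcripts, PMK and MVDD. Daughter root was the highest library for 7 of the 8, the exception being the HMGR transcript TR50314|c2_g1_i5, which was highest in rootlet.

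**Figure D4:**
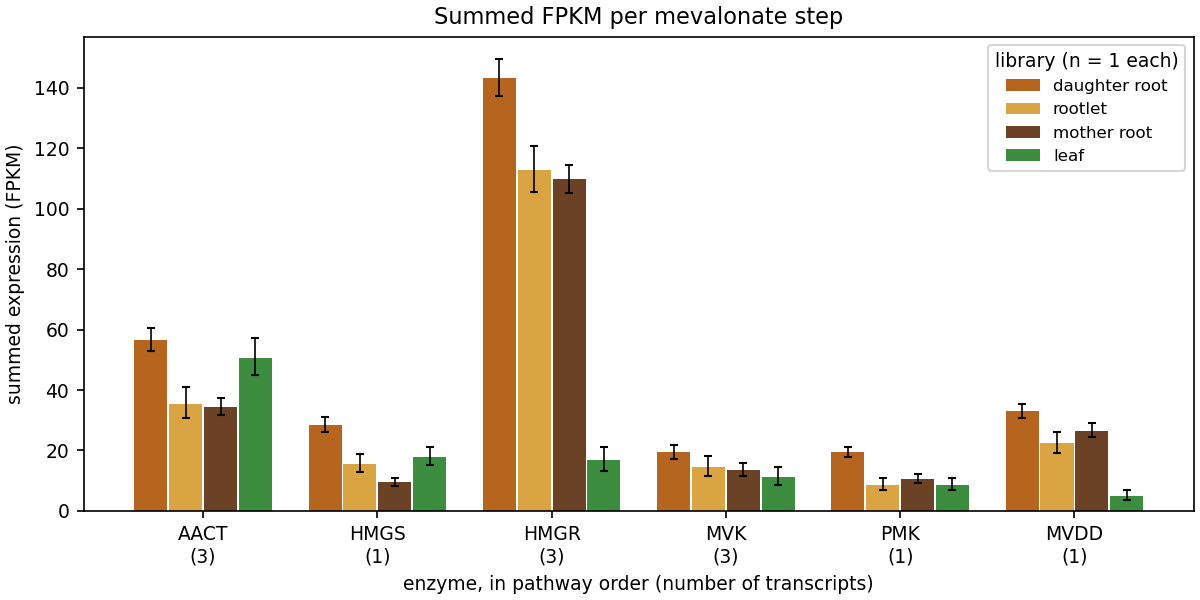
Summed FPKM of the transcripts of each MVA step, in pathway order, in daughter root, rootlet, mother root and leaf. Bars are single libraries and error bars are 95% counting limits; AACT in leaf, at 50.7 FPKM, is near its daughter root level of 56.6 FPKM, whereas HMGR is 16.7 FPKM in leaf against 143 FPKM in daughter root.

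The profile nearest to AACT was sought among the other listed transcripts with a mean FPKM of at least 5. These came from the MVA, MEP and diterpene core pathways. The nearest had the smallest distance between centred log2(FPKM + 1) values over the 4 libraries. For the AACT sum the nearest of 31 was TR49767|c0_g1_i4, assigned to geranylgeranyl diphosphate synthase (GGPPS), which makes the precursor of diterpenes, at a distance of 0.147. It was expressed at 16.3 FPKM in daughter root, 11.4 FPKM in rootlet, 9.64 FPKM in mother root and 15.2 FPKM in leaf. By these values it followed the same high pair of daughter root and leaf. Its ratio in rootlet over leaf was 0.751 with an interval that included 1 (0.548 to 1.03), so that order was unresolved. Next were a GGPPS transcript of the same Trinity gene, TR49767|c0_g1_i1, at 0.469, and TR39144|c0_g1_i2, assigned to ISPD of the MEP pathway, at 0.517. The other listed GGPPS transcripts were instead highest in leaf. There TR47741|c1_g1_i1 had 28.4 FPKM, against 15.25 in daughter root, and TR47741|c1_g1_i2 had 29.97, against 15.17. TR51056|c0_g1_i1 had 27.98 FPKM in leaf, against 4.08 in daughter root.

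For HMGS the nearest of 33 was the same GGPPS transcript, TR49767|c0_g1_i4, at a distance of 0.580, followed by AACT i3 at 0.755 and AACT i10 at 0.760. With 4 libraries, many profiles lie this close. Of all transcripts with a mean FPKM of at least 5, 19 were as close to the AACT sum as its nearest listed transcript, and 164 were as close to HMGS as its nearest. For the next listed transcripts in order, these counts were 822 and 1134 for the AACT sum, and 538 and 549 for HMGS.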

How the data were processed

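Strand-specific RNA-seq libraries of *A. japonicum*, 1 per organ, were sequenced. The authors trimmed the reads with Trimmomatic, built a de novo assembly with Trinity, reduced redundancy with CD-HIT-EST, mapped the reads of each organ with Bowtie 2 and quantified them with RSEM. As deposited, the values per transcript are expected counts of fragments, FPKM and TPM. The percent of a gene held by each transcript, as deposited, was 0 or 100 throughout, since each transcript stood as its own gene, and was not used. No genome was used, so no positions are given. FPKM recomputed from count, effective length and library total differed by at most 0.00495 for the transcripts checked.

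FPKM was the main measure. Ratios were taken between single libraries, with exact conditional (single transcripts) or delta-method (sums) limits at 95% from the counts, and with 6 pairs of libraries compared. For fold rules and log2 ratios 1 was added to FPKM, transcripts past 2-fold were counted, and the 27221 transcripts with a mean FPKM of at least 5 formed the background. Counts and totals set the precision. Python 3.11.15, numpy 2.4.6, pandas 2.3.3, scipy 1.17.1 and matplotlib 3.10.9 were used. The ratio limits of single transcripts and the 2-fold rule were checked on simulated Poisson counts. The delta-method limits, shares and profile distances were not checked in this way.

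The transcripts named were the members, the others of the AACT Trinity gene, those of the MVA pathway and the 3 nearest profiles. Members, lists and rules were chosen with earlier results of these data known. Alternatives were TPM, median-of-ratios scaling over 35605 transcripts, pseudocounts of 1 and 0.1, other sums, lengths, filters and a fold of 1.5. Intervals of each member's ratio under both scalings, evenness at 100 fragments and ratios to HMGR were added after the data were seen. Median-of-ratios scaling shifted the log2 ratio by 0.21 for daughter root over mother root, 0.17 for rootlet over mother root and -0.16 for mother root over leaf. The metabolome was not analysed here.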

Additional observations from a re-analysis of the deposited data

How the results depend on the processing

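The counting limits cover counting error only, and with 1 library per organ the variation between plants could not be measured, nor could a library be left out in turn. No paired analysis was possible because each organ had a single library. The i10 values of AACT rested on 8 to 79 fragments. Levels, ratios and shares were taken as moved when they left their counting limits, and counts when they changed by over 1.5 times. By this measure 19 recomputed values moved and 59 did not, and 0 ratios whose interval excluded 1 changed direction. The AACT sum in rootlet over mother root, whose interval included 1, was 1.03 and became 0.981 with the fragments scaled by library total alone. With median-of-ratios scaling the AACT sum in daughter root over mother root was 1.90. The ratio of HMGS to AACT in daughter root was 0.445 with every transcript of the Trinity gene. With i2 as the only AACT transcript it was 1.04 in daughter root, 0.737 in rootlet, 0.437 in mother root and 0.663 in leaf. As a share of FPKM rather than fragments, i2 held 48.4% in daughter root, 59.5% in rootlet, 63.0% in mother root and 53.2% in leaf. On the same basis i10 held 17.9%, 13.4%, 3.23% and 12.2% in that order, and i3 held 33.8% in mother root. These shares differ because FPKM weights short transcripts more. Beyond 1.5-fold, 3 of the other 8 MVA transcripts, taken without a filter on mean FPKM, were higher in daughter root than in mother root, against 15.9% of all. For daughter root over leaf, 16.1% of transcripts with a mean FPKM of at least 1, and 15.5% of all without a filter, were more than 2-fold higher. Of the 24 ratios of single members, TPM changed 4 interval calls and 0 directions. Median-of-ratios scaling changed 0 calls and 1 direction, that of i2 in rootlet over mother root, which became 1.10 (0.906 to 1.33).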

Other observations

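The component TR49281 also held transcripts outside the AACT gene, which were named after their values were seen. TR49281|c1_g1_i1, with 255 bases, had 5 fragments in daughter root, 4 in rootlet, 1 in mother root and 0 in leaf, where a count of 0 allows up to 6.23 FPKM when that limit is set at 3 fragments. TR49281|c2_g2_i2, TR49281|c2_g2_i4 and TR49281|c2_g2_i6 had at most 4 fragments in any library.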
